A study of Mus musculus with 6 samples.

Results

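Bassoon (Bsn) and Piccolo (Pclo) are very large proteins of the presynaptic active zone, and Shank1 and Shank3 are scaffold proteins of the postsynaptic density. The m6A-enriched regions on these 4 genes were taken from 1 deposited list for midbrain and striatum of adult mice with a global Fto knockout on a C57BL/6 background. A listed peak was assigned to a gene when its midpoint lay in the gene's window, which holds the gene with its introns and a short flank. By this rule the 4 genes held 95 of the 29950 listed peaks, namely 47 on Bsn, 26 on Pclo, 12 on Shank1 and 10 on Shank3. Touching peaks were joined into stretches, which left 48 stretches on the 4 genes of 19404 in the whole list.

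The list came from 3 libraries of RNA precipitated with an m6A antibody (MeRIP) and 3 input libraries without precipitation. All 6 libraries carry the knockout, and control mice were not analysed here, so the list gives positions of enrichment in the absence of Fto and no effect of its loss. Each line of the list is the position of a peak, with no height, strand, count or value per library. The spread between libraries and their depth are therefore unknown, and whether the libraries came from separate mice is not given in the labels. The members were selected on the midpoints of the listed peaks, and the genes were proposed with this list in view, so their peaks are given as a description, without a test.

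N6-methyladenosine (m6A) is an internal modification of messenger RNA that methyltransferases add, mainly within a short consensus sequence, and that demethylases such as FTO can remove. It is known to be common in long internal exons and near stop codons, and it affects the stability, translation and localization of transcripts. Bassoon and Piccolo organize the cytomatrix of the active zone, where synaptic vesicles dock and fuse. Shank proteins link glutamate receptor complexes to the actin cytoskeleton under the postsynaptic membrane through partners such as Homer and the SAPAP proteins, and Shank3 is prominent in the striatum.

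All coordinates are in mm9, 1-based. No mm9 annotation was used, so stretches are placed by their distance from the 5′ edge of the window and not by exon, intron or UTR. The direction of transcription was read from a RefSeq promoter table of GRCm38.p6 for Bsn (minus strand), Pclo (plus) and Shank3 (plus), with no coordinate carried between builds. Shank1, the member without an entry in that table, is known to lie on the plus strand in the mouse. In RefSeq's GRCm38.p6 the 4 genes overlap 5 other annotated genes. The lncRNA 4930447F24Rik and the pseudogene Gm37201 overlap Bsn, the pseudogene Gm18668 overlaps Pclo, the protein-coding gene 1700008O03Rik overlaps Shank1, and the lncRNA Gm15609 overlaps Shank3. The list has no strand, so from which gene of such a pair a stretch comes cannot be told apart.

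**Figure D1:**
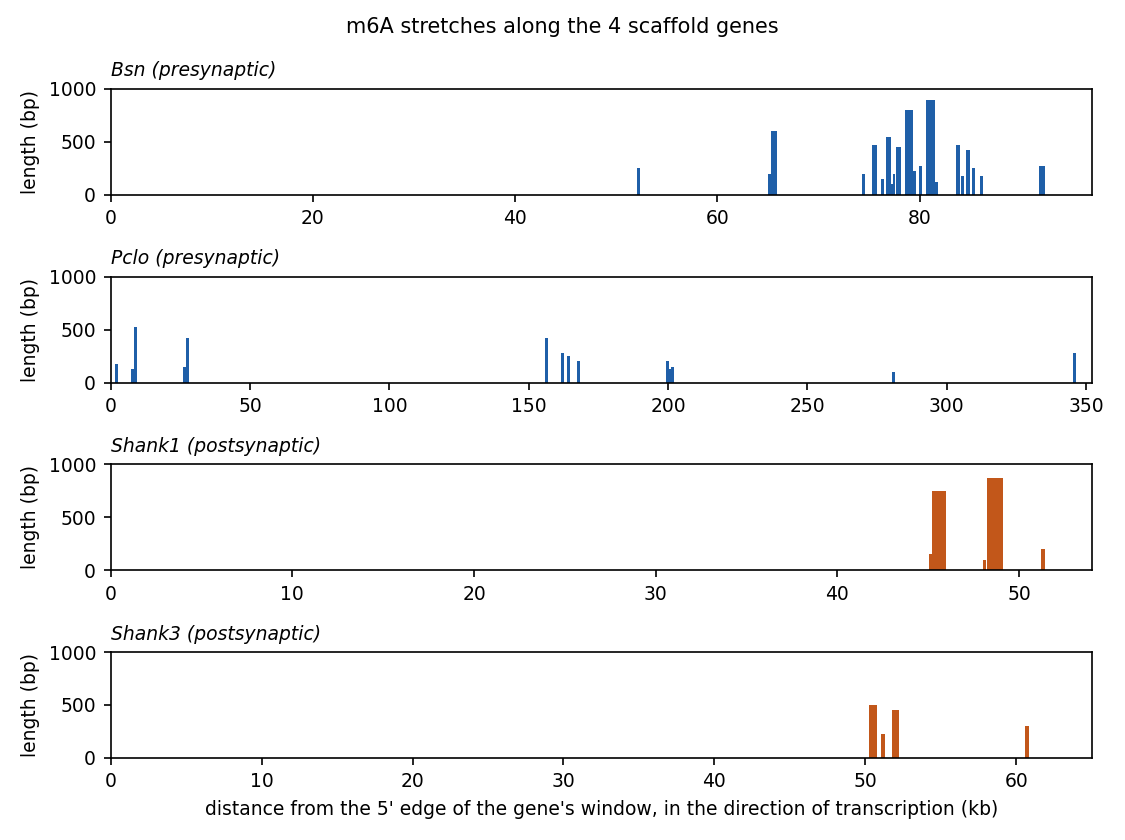
m6A stretches along Bsn, Pclo, Shank1 and Shank3. Each bar is 1 stretch, placed by its distance in kb from the 5′ edge of the gene's window in the direction of transcription, and its height is its length in bp. Bars too narrow to see were widened for display, and each panel has its own horizontal scale. The stretches of Bsn, Shank1 and Shank3 lie towards the 3′ side, whereas those of Pclo run from 1.975 kb to 346.125 kb.

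Bsn had the most stretches and the most covered bases of the 4 genes. Its window on chromosome 9, from 107.997 to 108.094 Mb, held 22 stretches that covered 7550 bp, or 7.78% of the 97 kb window. That was 50.8% of the bases covered on the 4 genes together. Among windows of 97 kb tiled along chromosomes 1 to 19 and X that held any stretch, 0.0435% (3 of 6898) had at least as many covered bases, and the median such window had 425 bp. At least as many stretches lay in 0.058% (4 of 6898). The tiled windows were not cleared of the 4 genes, and a single one of them held all stretches of Bsn, so both counts include Bsn itself. As all 4 genes were chosen with this list known, nothing is read from these ranks or from those of the other genes below. The tiled windows are also unlike the gene windows, because they are not fitted to genes.

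No stretch lay in the first 52.1 kb of the Bsn window. The most 5′ stretch was 250 bp long, at 108041651 to 108041900. It was followed after a gap of 12.725 kb, the largest on the gene, by a pair of stretches of 200 and 600 bp that stood 50 bp apart. The longer of that pair lay at 108028076 to 108028675. These 3 stretches were the only ones of Bsn that lay before 75% of its window, and they made up 1050 of its 7550 covered bases.

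The main body of Bsn enrichment was a run of stretches between 74.375 and 86.225 kb from the 5′ edge. With stretches at most 1 kb apart taken as a block, it consisted of a block of 12 stretches over 7.375 kb and a block of 5 stretches over 2.675 kb, separated by 1800 bp. The first block, at 108012251 to 108019625, was 60.3% covered and held 58.9% of the covered bases of the gene. The second, at 108007776 to 108010450, was 56.1% covered and held 19.9%. Both blocks together held 17 of the 22 stretches and 5950 bp within 11.85 kb, so that 78.8% of the covered bases of Bsn lay in a small part of its window.

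The first block of Bsn also held its longest stretches. In the direction of transcription its 12 stretches were 200, 475, 150, 550, 100, 200, 450, 800, 225, 275, 900 and 125 bp long. With touching peaks merged, the stretch of 900 bp, at 108012526 to 108013425, was the longest on any of the 4 genes. In the whole list 114 stretches were longer. The stretch of 800 bp lay upstream of that of 900 bp, at 108014701 to 108015500. With peaks within 100 bp merged, the stretches of 800 and 225 bp joined at 108014426 to 108015500 into a stretch longer than 900 bp. Shank1 then had a stretch of 1075 bp, also longer than 900 bp. Gaps inside the block ran from 25 to 750 bp, and the lengths show no steady trend along it.

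Past the main body, Bsn had 1 more block, of 2 stretches of 275 bp that stood 25 bp apart. They lay at 108001651 to 108001925 and 108001951 to 108002225, after a gap of 5550 bp. The last of them ended 4.65 kb from the 3′ edge of the window. Bsn thus had a dense body between 74.375 and 86.225 kb and short groups on either side of it.

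Pclo, the relative of Bsn, had fewer and shorter stretches spread over almost its whole length. Its window on chromosome 5, from 14.513 to 14.865 Mb, held 17 stretches that covered 3775 bp, or 1.07% of 352 kb. The first and last stretch were 344.15 kb from end to end, which is 97.8% of the window, against 41.5% for Bsn. Of windows of 352 kb with any stretch, 4.79% (184 of 3844) had at least as many covered bases, and the median one had 725 bp. At least as many stretches lay in 3.85% (148 of 3844). The window of Pclo is the longest of the 4, and most of a long gene is intron, so the covered share of a window is not the covered share of a transcript.

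The stretches of Pclo fell into 10 blocks, of which 7 were single stretches. The 5′ part of the window held 3 blocks within its first 27.75 kb. The first was a single stretch of 175 bp at 14514976 to 14515150. The second held stretches of 125 and 525 bp, and the third held stretches of 150, 100, 150 and 425 bp. The stretch of 525 bp, at 14521526 to 14522050, was the longest on Pclo, and 817 stretches of the list were longer. With peaks within 100 bp merged, the longest on Pclo instead lay in the third block, at 14539951 to 14540750. The third block, at 14539526 to 14540750, had the most covered bases on the gene, with 825 bp or 21.9% of its total.

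After these 3 blocks, Pclo had no listed peak for 128.5 kb, the largest gap on any of the 4 genes. Then came 4 single stretches of 425, 275, 250 and 200 bp between 156.25 and 168 kb, with gaps of 1850 to 5275 bp between them. A block of 4 short stretches, of 200, 125, 125 and 150 bp, followed at 14712576 to 14714550, where 30.4% of 1975 bp was covered. The remaining 2 stretches stood alone. One of 100 bp lay at 14793901 to 14794000, after a gap of 79.35 kb, and one of 275 bp lay at 14858851 to 14859125, which ended 5.875 kb from the 3′ edge.

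Shank1 had few stretches, but, with touching peaks merged, 2 of the 5 that reached 600 bp on the 4 genes. Its window on chromosome 7, from 51.564 to 51.618 Mb, held 5 stretches that covered 2075 bp, or 3.84% of 54 kb. Of windows of 54 kb with any stretch, 2.18% (181 of 8305) had at least as many covered bases, and the median one had 350 bp. At least as many stretches lay in 10.8% (900 of 8305). The first 45.05 kb of the window held no listed peak. The stretches then followed each other within 6.375 kb, in 2 pairs and a single one.

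Each pair on Shank1 was a short stretch directly upstream of a long one. The first pair was 150 bp at 51609051 to 51609200 and, 25 bp on, 750 bp at 51609226 to 51609975. The second was 100 bp at 51612026 to 51612125 and, 100 bp on, 875 bp at 51612226 to 51613100. A single stretch of 200 bp at 51615226 to 51615425 came last and ended 2.575 kb from the 3′ edge. The gaps between these 3 groups were 2050 and 2125 bp. The stretch of 875 bp held 42.2% of the covered bases of Shank1. With touching peaks merged, it was second in length to the longest stretch of Bsn among the 4 genes.

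Shank3 had the fewest stretches of the 4 genes when touching peaks were merged, 4 against 5 on Shank1, but with peaks within 100 bp merged it had 4 against 3. All of its stretches exceeded 200 bp, the length of the longest listed peak. Its window on chromosome 15, from 89.328 to 89.393 Mb, held 4 stretches that covered 1475 bp, or 2.27% of 65 kb. Of windows of 65 kb with any stretch, 7.22% (563 of 7803) had at least as many covered bases, and the median one had 375 bp. At least as many stretches lay in 21% (1635 of 7803). The first 50.25 kb held no listed peak.

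The first 3 stretches of Shank3 formed a block of 1.95 kb. They were 500 bp at 89378251 to 89378750, 225 bp at 89379051 to 89379275 and 450 bp at 89379751 to 89380200. This block held 79.7% of the covered bases of the gene. The last stretch, of 300 bp at 89388551 to 89388850, stood 8350 bp further on and ended 4.15 kb from the 3′ edge. A group of stretches followed by a separate one nearer the 3′ edge was thus seen on both Shank genes. This is not particular to them. Bsn also ended in a separate block, of 2 stretches only 25 bp apart, and Pclo also ended in a lone stretch.

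**Figure D2:**
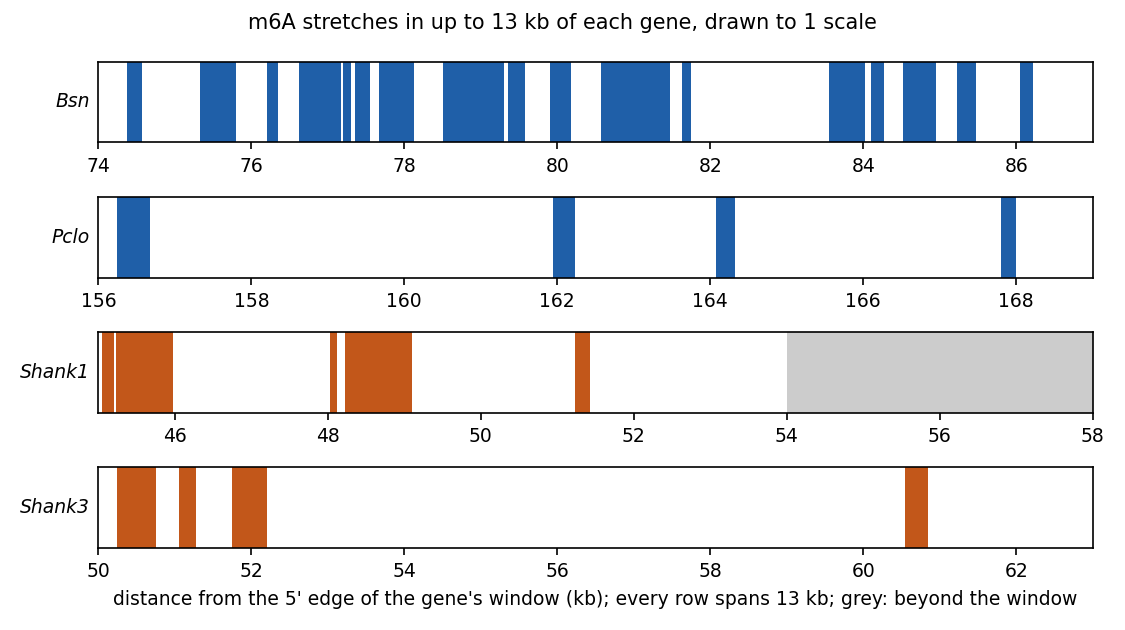
m6A stretches in up to 13 kb of each gene, on 1 scale. Filled bars are stretches and the horizontal axis is the distance in kb from the 5′ edge of the window. The rows of Bsn, Shank1 and Shank3 start just before the block or group of blocks with most of the gene's covered bases. The row of Pclo shows its 4 single stretches between 156.25 and 168 kb. The 17 stretches of the main body of Bsn fill the top row, against 4 or 5 in each of the other rows.

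Along the direction of transcription, Bsn resembled the Shank genes in placement more than it resembled Pclo. All 22 stretches of Bsn, all 5 of Shank1 and all 4 of Shank3 lay past the midpoint of their windows, but only 6 of the 17 on Pclo did. Past 75% of the window lay 19 stretches of Bsn with 86.1% of its covered bases, and all stretches of both Shank genes. On Pclo, 2 stretches with 9.93% of the covered bases lay there. The place by which 50% of the covered bases had been reached was 81.3% of the window on Bsn, 90.1% on Shank1, 80.0% on Shank3 and 44.4% on Pclo. These places are along genomic windows whose introns differ in length, so they are not places along the mature transcripts.

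**Figure D3:**
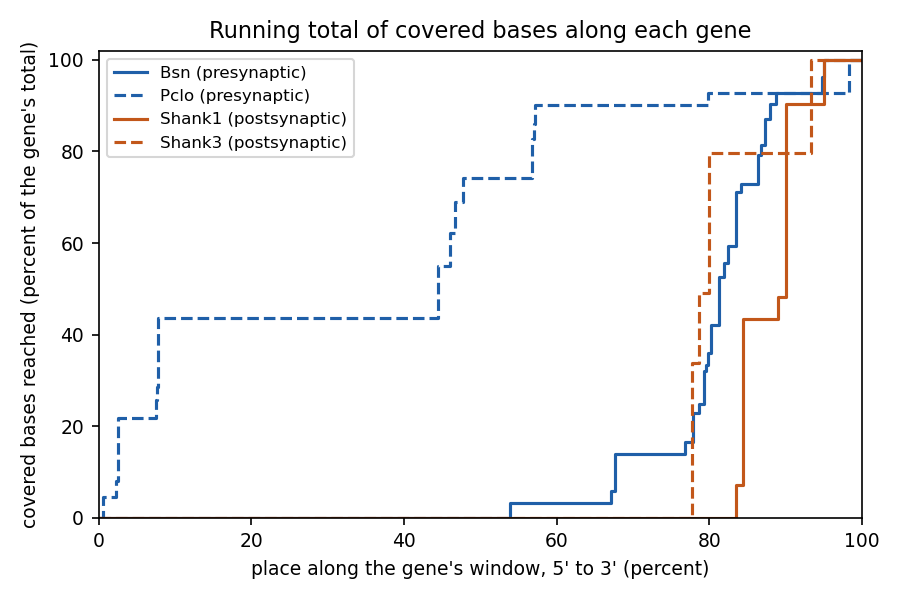
Running total of covered bases along each gene. The horizontal axis is the place along the window from 5′ to 3′ in percent, and the vertical axis is the share of the gene's covered bases reached by then, counted at the middle of each stretch. Bsn, Shank1 and Shank3 stay at 0 up to the midpoint of the window, while Pclo has risen in several steps before it.

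The presynaptic pair had more stretches and more covered bases than the postsynaptic pair, but not more covered bases per kb of window. Bsn and Pclo together held 39 stretches and 11325 covered bp, and Shank1 and Shank3 together held 9 stretches and 3550 covered bp. Both presynaptic genes (22 and 17 stretches) were above both postsynaptic genes (5 and 4) in stretches, and likewise in covered bases (7550 and 3775 bp against 2075 and 1475 bp). The windows also differ, at 449 kb for the presynaptic pair and 119 kb for the postsynaptic pair. Per kb of window the pairs were close, with 25.2 covered bp for the presynaptic and 29.8 for the postsynaptic pair, and the genes of the pairs overlapped. Bsn was highest with 77.8 covered bp per kb, followed by Shank1 with 38.4, Shank3 with 22.7 and Pclo with 10.7. Stretches per 10 kb of window went the other way, with 0.869 for the presynaptic and 0.756 for the postsynaptic pair. Here too the genes overlapped, with 2.27 on Bsn, 0.926 on Shank1, 0.615 on Shank3 and 0.483 on Pclo. With 2 genes on each side no exact permutation test could give a two-sided p below 0.333, and none was run.

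Stretch lengths overlapped between the sides. Of the presynaptic stretches, 20 of 39 (51.3%, exact Clopper-Pearson 95% interval 34.8 to 67.6) were longer than 200 bp, and of the postsynaptic stretches 6 of 9 (66.7%, 29.9 to 92.5). Without Shank3 the postsynaptic share was 40%, below the presynaptic one. In the whole list 40.5% of stretches were longer than 200 bp (7860 of 19404). The intervals cover counting error only and treat stretches of a gene as independent, which they are not. By gene the share was 63.6% on Bsn (14 of 22), 35.3% on Pclo (6 of 17), 40% on Shank1 (2 of 5) and 100% on Shank3 (4 of 4), so the genes of each pair differed more from each other than the pairs did.

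Median stretch lengths were 225 bp for the presynaptic pair (exact binomial 95% interval 175 to 275) and 300 bp for the postsynaptic pair (150 to 750), against 200 bp in the whole list. Without Shank3 the postsynaptic median was 200 bp, also below the presynaptic one. The mean length was 343.2 bp ± 216.9 (SD over 22 stretches) on Bsn and 222.1 bp ± 126.8 (SD over 17) on Pclo. It was 415.0 bp ± 367.3 (SD over 5) on Shank1 and 368.8 bp ± 128.1 (SD over 4) on Shank3. The lengths overlapped between the genes, from 100 to 900 bp on Bsn, 100 to 525 bp on Pclo, 100 to 875 bp on Shank1 and 225 to 500 bp on Shank3. Stretches of 600 bp or more numbered 3 on Bsn (900, 800 and 600 bp) and 2 on Shank1 (875 and 750 bp), with 0 on Pclo and Shank3. In the whole list 3.07% of stretches (596 of 19404) were that long. These numbers are for touching peaks merged. With peaks within 100 bp merged, Pclo stretches of 100, 150 and 425 bp joined into a stretch longer than 600 bp. Bsn then also had more stretches of that length, and Shank3 still had none.

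**Figure D4:**
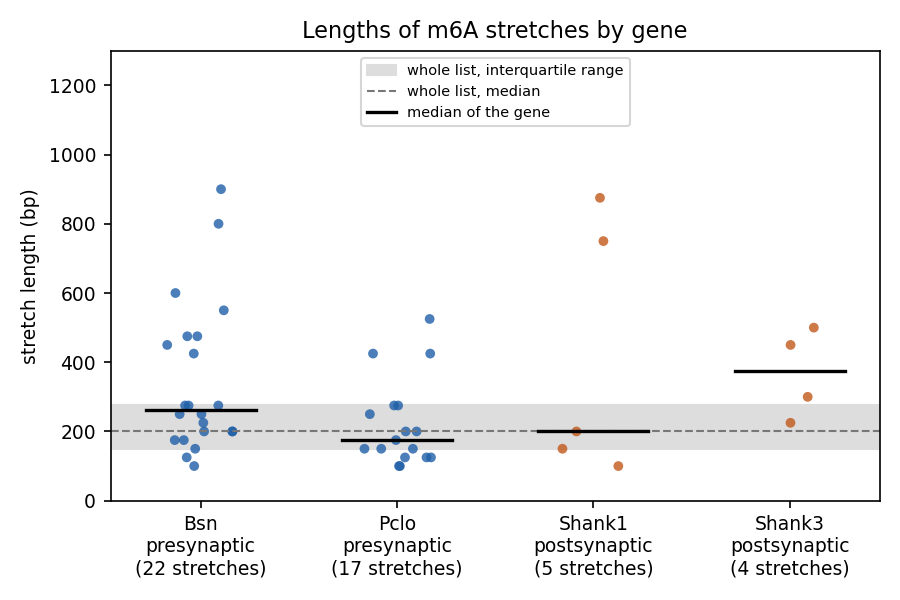
Lengths of the m6A stretches in bp by gene. Each point is 1 stretch, spread sideways for display, and the black bar is the median of the gene, at 262.5 bp on Bsn, 175 bp on Pclo, 200 bp on Shank1 and 375 bp on Shank3. The grey band is the interquartile range of the whole list, from 150 to 275 bp, and the dashed line its median of 200 bp. Bsn and Shank1 have points above 600 bp, and Pclo and Shank3 have none.

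The median spacing of stretches also differed between Bsn and Pclo, but their gaps overlapped. They ran from 25 to 12725 bp on Bsn and from 25 to 128500 bp on Pclo. Gaps are genomic distances that can include introns, in windows of unlike length. The median gap between neighbouring stretches was 275 bp on Bsn and 2662.5 bp on Pclo. On Shank1 it was 1075 bp over 4 gaps and on Shank3 475 bp over 3 gaps. Of the gaps, 17 of 21 on Bsn were at most 1 kb, against 7 of 16 on Pclo, 2 of 4 on Shank1 and 2 of 3 on Shank3. Stretches begin and end at multiples of 25 bp, and 4 of the 28 gaps of at most 1 kb on the 4 genes (14.3%) were exactly 25 bp, the smallest gap this grid can show. In the whole list 11.1% of such gaps (719 of 6497) had that width. Of the 4 gaps, 2 were on Bsn, 1 on Pclo and 1 on Shank1.

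Few stretches lay near the window edges, on either side. The nearest stretch outside the Bsn window was 125 bp long and ended 9.1 kb below its low edge, beyond the 3′ end of the gene, where Apeh is the next protein-coding gene in RefSeq. On the other side, towards Dag1, the nearest lay 14.776 kb away. For Shank1 the nearest outside stretch was 27.876 kb above the high edge, for Shank3 21.625 kb below the low edge and for Pclo 260.325 kb below the low edge. The nearest stretch inside an edge was that of Pclo, 1.976 kb from its low edge.

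An unlisted part of a gene may be unmethylated or may have had too few reads, and the list cannot tell these apart. Midbrain and striatum entered as bulk tissue, so methylation in few cells and a low level in many cannot be told apart either. Transcript levels of the 4 genes were not analysed here, and their part in the differences between the genes was not tested.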

How the data were processed

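Per the labels' protocols, RNA from midbrain and striatum was depleted of ribosomal RNA and taken through 2 rounds of m6A immunoprecipitation. The submitters' processing notes name SAMtools 0.1.18, BWA 0.6.2-r126 and the build mm9. Peak caller, threshold and combining of replicates were not given in the sources used here. Since the authors' deposited list holds peak coordinates only, no depth could be read from it.

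Computations used Python 3.11.15, numpy 2.4.6, scipy 1.17.1 and matplotlib 3.10.9. Peaks were assigned to the windows of the 4 genes by midpoint, peaks with a gap of 0 bp were merged, and stretches at most 1 kb apart formed a block. Merging was checked on simulated stretches cut into touching parts. That checks the computation only, and cannot show whether touching listed peaks belong to the same enriched region. Windows tiled from position 0 of each chromosome, of the length of each gene's window, gave the background. They were not fitted to genes and were not cleared of the 4 genes themselves. The named items were, in each gene, the longest, first and last stretch, the largest gap and the block with the most covered bases. Other stretches, and the joint span of both Bsn blocks, were named after their values had been seen. The planned list of other scaffold genes needs an mm9 annotation and was not analysed here. Members and measures were chosen with earlier results of these data known. Sequences of the stretches were not used here. Alternatives were another merging distance, longer stretches only, any overlap, shorter windows and each gene of a pair alone.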

Additional observations from a re-analysis of the deposited data

How the results depend on the processing

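Of 48 alternative values, 42 stayed within 1.5 times the count, or within the interval of the percentage or median, and 6 moved. The 42 are no measure of stability. No stretch lay nearer to a window edge than 1.976 kb, so any overlap and shorter windows could hardly change a value. The intervals of the pairs are wide, and a value can stay inside one although the direction between the sides reverses, as given below. Keeping only stretches over 200 bp left 14 stretches on Bsn, 6 on Pclo and 2 on Shank1, and 2175 covered bp on Pclo, because it removes stretches by construction. The order of stretch numbers then changed, since Shank3 kept its 4 and passed Shank1. Merging peaks within 100 bp left 3 stretches on Shank1, as both of its pairs were joined, and Shank3, with 4, then no longer had the fewest. It also changed the longest stretch of Bsn, Pclo and Shank1, and the numbers of 600 bp or more on Bsn and Pclo. With Shank1 left out, the postsynaptic share of stretches over 200 bp was 100%, from Shank3 alone. Assigning peaks by any overlap changed no stretch number or covered length of the 4 genes, and shortening each window by 2 kb at both ends changed none of these and no value of the pairs. With Shank3 left out, the postsynaptic share over 200 bp was 40%, below the presynaptic 51.3%. The postsynaptic median length was then 200 bp, below the presynaptic 225 bp. With touching peaks merged, the direction of both between the sides thus rested on Shank3. With peaks within 100 bp merged, Shank1 had stretches of 925, 1075 and 200 bp, and their median was above the presynaptic 275 bp. The share over 200 bp on Shank1, 2 of 3 stretches, was then also above the presynaptic 63.3%, by a small margin. Neither direction then rested on Shank3. The presynaptic share was 35.3% without Bsn and 63.6% without Pclo, both below the postsynaptic 66.7%. No paired analysis was possible because 1 list of positions stands for all 6 libraries. Leaving out single replicates was not possible either. What a part of a gene without peaks means is limited by depth, RNA level and the threshold for calling a peak, none of which the list gives.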
